A study of Arabidopsis thaliana with 36 samples.

Results

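The genes described here encode proteins of the cytosolic ribosome of Arabidopsis thaliana. The set holds 55 loci, 25 for proteins of the small (40S) subunit and 30 for proteins of the large (60S) subunit, out of 33540 genes listed for each library. The loci were taken by identifier as known cytosolic ribosomal protein genes, a set picked with earlier results of these data known, and no threshold on a measured value decided which loci belong to it. They fall into 28 protein families, of which 23 are represented by more than 1 paralogous locus. All 55 were listed in all 36 libraries, and all 55 passed the filter on low values in each fit.

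RNA was sequenced from pooled whole seedlings of 3 genotypes in the Col-0 background: the wild type (WT), pif4-2, a mutant line for the bHLH transcription factor PIF4, and hda9-1, a mutant line for the histone deacetylase HDA9. Seedlings grew on agar plates in short days (8 h light, 16 h dark) at 22 or 27 °C and were taken at dawn, either 2 or 7 days old. Each of the 12 combinations of genotype, temperature and age has 3 libraries. Each library combined RNA of 3 seedling batches, so p-values measure the spread between pools. Each mutant is represented by a single line.

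The cytosolic ribosome translates the messenger RNA of nuclear genes, and its proteins are assembled with ribosomal RNA in the nucleolus before export. In Arabidopsis each of these proteins is encoded by a small family of closely similar paralogues, which are told apart by a letter (RPS9B and RPS9C, for example). In plants the genes are known for high expression in growing and dividing tissue and for promoters that often carry short elements called the telo box and site II. In whole seedlings, fewer cells of a type and less RNA per cell cannot be told apart.

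The promoters of 3 pairs of paralogues that moved unlike each other are shown first, because the results return to them. Each line is the 250 bases before the annotated gene start, 5′ to 3′ on the gene's strand, from RefSeq on build TAIR10.1. Capitals mark telo boxes (AAACCCTA) and site II elements (TGGGCC or TGGGCT), searched on both strands, and matches may overlap. RPS9B (AT5G15200) is the sequence at chr5:4936430-4936679 (minus strand) and RPS9C (AT5G39850) that at chr5:15949660-15949909 (plus strand). RPS6A (AT4G31700) is at chr4:15347805-15348054 and RPS6B (AT5G10360) at chr5:3260255-3260504 (both minus strand). RPS21B (AT3G53890) is at chr3:19956450-19956699 and RPS21C (AT5G27700) at chr5:9808514-9808763 (both minus strand).
RPS9B: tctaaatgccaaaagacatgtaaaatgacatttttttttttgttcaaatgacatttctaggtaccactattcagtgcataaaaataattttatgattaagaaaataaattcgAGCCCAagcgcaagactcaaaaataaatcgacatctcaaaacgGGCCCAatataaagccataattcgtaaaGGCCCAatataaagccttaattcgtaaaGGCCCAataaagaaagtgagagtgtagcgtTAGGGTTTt
RPS9C: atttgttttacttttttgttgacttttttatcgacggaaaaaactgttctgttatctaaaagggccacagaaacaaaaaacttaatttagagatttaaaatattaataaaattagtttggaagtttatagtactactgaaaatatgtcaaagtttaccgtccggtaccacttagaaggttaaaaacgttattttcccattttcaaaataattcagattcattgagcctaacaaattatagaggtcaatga
RPS6A: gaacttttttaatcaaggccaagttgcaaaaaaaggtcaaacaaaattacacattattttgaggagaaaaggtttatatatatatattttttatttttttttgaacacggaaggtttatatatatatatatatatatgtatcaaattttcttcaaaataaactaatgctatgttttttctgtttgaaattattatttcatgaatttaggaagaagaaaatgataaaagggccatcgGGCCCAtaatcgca
RPS6B: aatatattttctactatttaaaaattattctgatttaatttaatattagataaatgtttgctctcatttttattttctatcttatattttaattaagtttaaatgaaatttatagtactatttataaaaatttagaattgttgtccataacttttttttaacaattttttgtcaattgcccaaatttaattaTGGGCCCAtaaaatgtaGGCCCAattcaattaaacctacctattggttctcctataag
RPS21B: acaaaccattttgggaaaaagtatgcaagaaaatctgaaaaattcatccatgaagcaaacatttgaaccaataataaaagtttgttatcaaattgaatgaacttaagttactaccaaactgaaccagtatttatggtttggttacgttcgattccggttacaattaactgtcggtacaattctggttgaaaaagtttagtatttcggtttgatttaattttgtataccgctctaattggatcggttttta
RPS21C: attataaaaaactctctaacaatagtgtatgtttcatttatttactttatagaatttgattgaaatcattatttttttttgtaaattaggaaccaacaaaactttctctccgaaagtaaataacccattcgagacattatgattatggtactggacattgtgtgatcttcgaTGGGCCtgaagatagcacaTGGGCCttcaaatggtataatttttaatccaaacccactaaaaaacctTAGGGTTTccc

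In the window from 250 bases before to 50 after the gene start, 27 of the 55 members (49.1%) held a telo box, against 6.22% of 27443 protein-coding genes. Site II letters were present at 42 members (76.4%) against 21.7% of those genes, and 36 members held more than 1 match. Both elements were present at 20 members (36.4%), against 2.20% of the protein-coding genes. Among 143 other cytosolic ribosomal protein loci the shares were alike, at 49.7% for the telo box, 79.0% for site II and 44.1% for both. In the 250 bases before the start alone, 11 members (20%) held a telo box, against 4.49% of protein-coding genes. Site II letters lay there at 36 members (65.5%), against 19.2%. Of the genes printed, RPS9B carried 4 site II matches and a telo box before its start. RPS9C carried no match in the 250 bases and 2 site II matches just after its start. RPS6A held 1 site II match before its start and 1 after it. RPS6B held 3 site II matches before its start, of which a pair overlap, and a telo box after it. RPS21C held 2 site II matches and a telo box, and RPS21B held no match in the whole window. A match describes letters and is not evidence of binding.

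Across the libraries, 21906850 to 67795235 reads lay in genes (median 44904956.5). The values are normalised counts, that is reads per gene divided by a size factor of the library. HDA9 averaged 549 ± 37.9 (SD, n = 3) in WT at 2 days and 22 °C and 26.7 ± 0.831 in hda9-1, and it was low in all 4 hda9-1 groups (means up to 73.4). PIF4 transcript did not bear out the label at 2 days. At 22 °C it averaged 470 ± 133 in WT and 853 ± 170 in the libraries labelled pif4-2 (limma adjusted p = 0.437). At 27 °C it averaged 1871 ± 552 in WT and 1802 ± 460 in those libraries. At 7 days and 22 °C it was lower in the libraries labelled pif4-2, at 2301 ± 391 against 3604 ± 80.3. PIF4 in hda9-1 at 22 °C also lay above WT at 2 days (1256 ± 189) and below it at 7 days (2152 ± 62.0). Where the lesion lies in the gene is not given in the sources used here, so these counts do not check the protein. Replicate 3 stood apart among the members at 2 days, lying in WT at a median of 0.811 times the mean of the other libraries of its group at 22 °C and 0.795 times at 27 °C. Replicate 3 of the libraries labelled pif4-2 at 7 days and 22 °C stood further apart, at a median of 0.753 times. There 21 members lay below 0.7 times, a limit chosen after the values were seen, and RPP1A, an acidic protein of the ribosomal stalk, lay lowest at 0.442 times.

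At 2 days the set was lower at 27 than at 22 °C. In WT 54 of 55 members fell and 1, RPS9C, rose. A gene is said to fall or rise, or is called, where limma's test on log2 values gave a Benjamini-Hochberg adjusted p below 0.05 over the 21164 genes tested. Of all those genes 35.5% fell and 36.5% rose. The median member fell by 1.16 on the log2 scale, a fold of 0.446, while the median of all genes tested moved by 0.01. The members together took 1.95% ± 0.229 of the reads in genes at 22 °C (SD, n = 3; 1.69 to 2.11%) and 0.851% ± 0.131 at 27 °C (0.709 to 0.968%), so the groups did not overlap. The 30 genes of the 60S subunit, all of which fell, had a median difference of -1.26, and the 25 of the 40S subunit had -0.97.

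**Figure D1:**
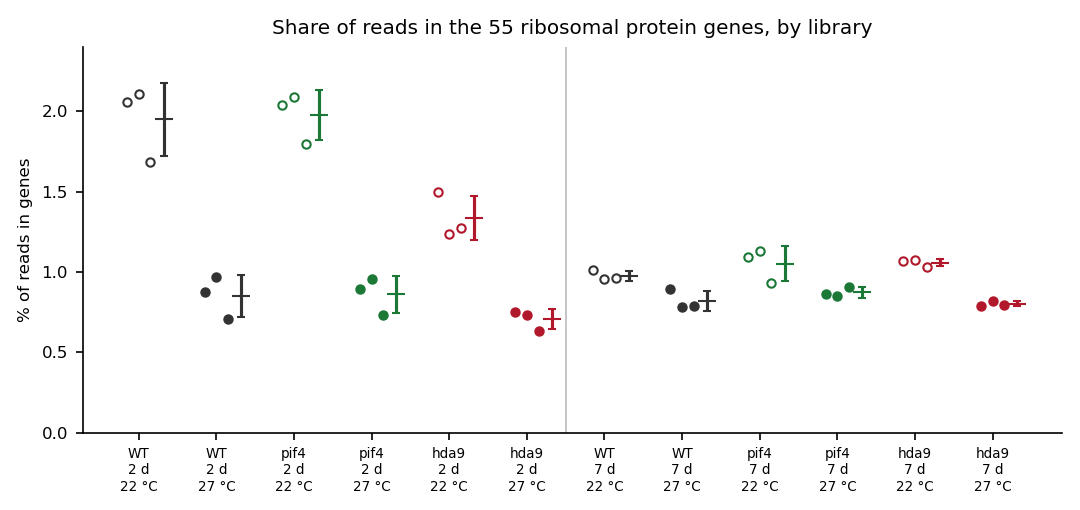
Share of reads in genes that came from the 55 ribosomal protein genes (percent, vertical axis) in each library of the 12 groups; points are libraries, open at 22 °C and filled at 27 °C, with the mean and SD at their right, black for WT, green for pif4-2 and red for hda9-1, and a line between 2 and 7 days. WT and pif4-2 at 2 days and 22 °C lie highest, with means of 1.95 and 1.98%, and the means at 27 °C lie between 0.707 and 0.872%.

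The deepest falls in WT at 2 days came from both subunits. RPS8B (AT5G59240), a weakly expressed locus for a 40S protein, read 85.6, 91.5 and 68.9 normalised counts at 22 °C and 26.9, 16.5 and 19.0 at 27 °C (log2 difference -1.95, SE 0.233, limma adjusted p = 1.63e-06). RPP0B (AT3G09200), the main locus for P0, which anchors the stalk, read 40594, 42545 and 32877 at 22 °C and 12312, 14273 and 9707 at 27 °C (-1.69, SE 0.147, adjusted p = 6.46e-08). All 27 °C libraries lay below all 22 °C libraries for both genes. RPL9D, RPL23aA, RPS6A and RPL24A followed, with log2 differences of -1.62, -1.62, -1.61 and -1.58. RPL23a sits where the growing protein leaves the ribosome, and RPL24 is known in plants for a role in reinitiation of translation. In all, 54 members had every 27 °C value below every 22 °C value, as did 36.4% of the genes tested.

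Between these and the smallest falls lay the rest of the 60S genes. The loci for RPL3 and RPL4, which line the catalytic core and the exit tunnel, had log2 differences of -1.02 (RPL3A), -1.03 (RPL4A) and -1.38 (RPL4D). RPL5, which carries 5S ribosomal RNA, had -1.13 (RPL5A) and -1.36 (RPL5B), and RPL10, which joins late in assembly, had -1.31 (RPL10A) and -0.94 (RPL10B). The smallest 60S fall was that of RPL38B, at -0.87. The stalk genes RPP1A and RPP1C fell by 1.11 and 1.39 on the log2 scale.

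The smallest falls of the set were in 40S genes. RPS3C (AT5G35530), 1 of 3 loci for a protein at the entry site of messenger RNA, read 9822, 10242 and 8512 at 22 °C and 7397, 7790 and 6832 at 27 °C (log2 difference -0.37, SE 0.0756, limma adjusted p = 0.000322). Its groups did not overlap, although the lowest 22 °C library and the highest 27 °C library lay close. RPS18C fell by 0.39 on the log2 scale, RPS15aA by 0.55, RPS21C by 0.64 and RPS12A by 0.67.

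RPS9C ran against the set. It is a weakly expressed locus for RPS9, a protein of the 40S body, and read 163, 198 and 173 normalised counts in WT at 2 days and 22 °C. At 27 °C it read 333, 335 and 299, above all 22 °C libraries (log2 difference 0.86, SE 0.103, limma adjusted p = 1.68e-06). Its paralogue RPS9B went from a mean of 29066 ± 3797 to 13903 ± 1392 (SD, n = 3; -1.06, SE 0.112, adjusted p = 4.62e-07). RPS9 was the family with members called in opposite directions in that comparison. RPS9C also rose in every other comparison of 27 with 22 °C. The log2 differences at 2 days were 0.97 in the libraries labelled pif4-2 and 1.59 in hda9-1, and those at 7 days were 0.51 in WT, 0.66 in the libraries labelled pif4-2 and 0.81 in hda9-1. Its share of the RPS9 level per kb of exon was 0.800% ± 0.112 in WT at 2 days and 22 °C and 2.94% ± 0.111 at 27 °C. This share and all family shares below count only the loci in the set.

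**Figure D2:**
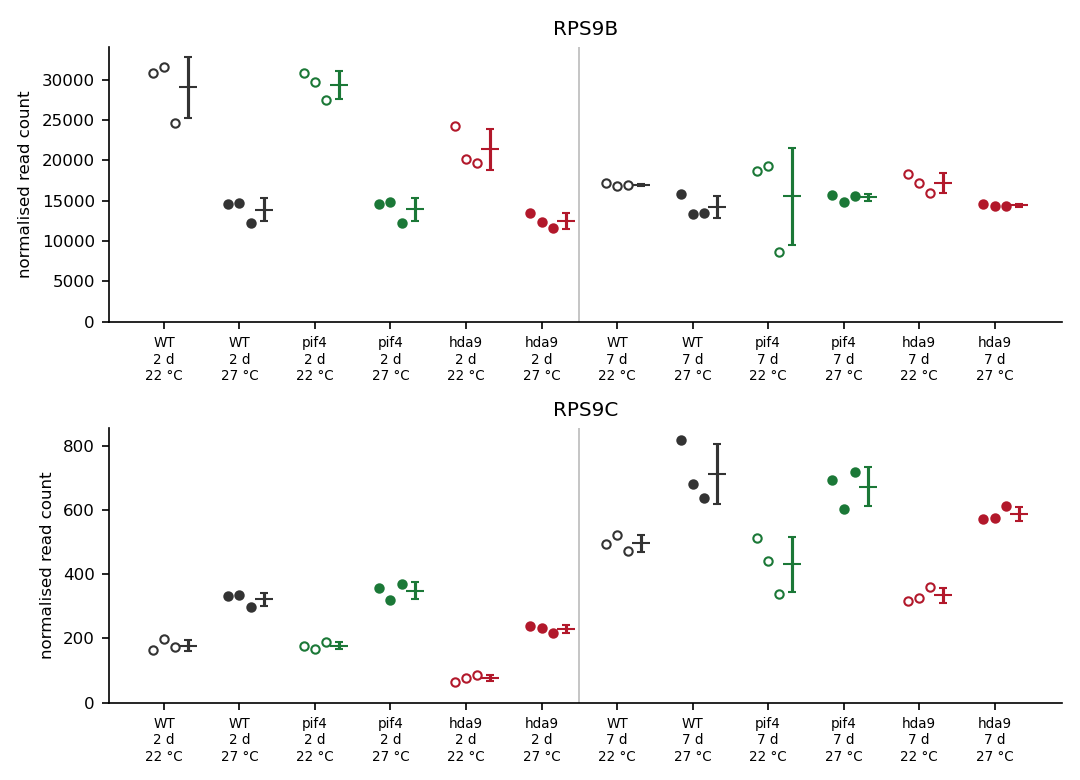
Normalised read count (vertical axes, different scales) of RPS9B above and RPS9C below in each library of the 12 groups; open points are 22 °C and filled points 27 °C, with the mean and SD at their right, black for WT, green for pif4-2 and red for hda9-1, and a line between 2 and 7 days. RPS9C is higher at 27 °C in each genotype at each age, RPS9B is lower at 27 °C at 2 days, and 1 library labelled pif4-2 at 7 days and 22 °C reads 8631 for RPS9B against 18654 and 19332 in the others.

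The libraries labelled pif4-2 gave like counts at 2 days. In them 54 members fell and RPS9C rose (median -1.20), against 34.4% and 35.8% of genes tested. In hda9-1 52 members fell and RPS9C rose (median -0.85), against 35% and 31.8% of genes. RPS3C (-0.15, limma adjusted p = 0.0920) and RPS18C (-0.10, adjusted p = 0.134) were the members not called in hda9-1.

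At 7 days fewer members were called. In WT 39 fell, RPS9C rose and 15 were not called (median -0.39), against 31.1% of genes falling and 26.3% rising. In the libraries labelled pif4-2 34 fell and 2 rose, RPS9C and RPS3C (0.24, SE 0.0580, limma adjusted p = 0.00181), against 31.6% and 28.5%. In hda9-1 43 fell and RPS9C rose, against 30.4% and 27.5%. The members took 0.976% ± 0.0296 of reads in WT at 22 °C and 0.820% ± 0.0619 at 27 °C (SD, n = 3), without overlap. RPS21B, a 40S gene, fell furthest in WT, from 3188, 2927 and 3133 normalised counts at 22 °C to 1876, 1600 and 1644 at 27 °C (-0.86, SE 0.0807, adjusted p = 7.61e-08). RPS11B followed at -0.84, RPS6A and RPL24A at -0.81, RPL23aA at -0.73 and RPS28B at -0.72.

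Several members that fell in WT at 2 days were not called at 7 days. RPL3A read 21682, 21862 and 21210 normalised counts at 22 °C and 25841, 23369 and 23334 at 27 °C, without overlap (log2 difference 0.16, limma adjusted p = 0.101). RPS3C had a difference of 0.13 (adjusted p = 0.0596), RPS18C 0.07, RPS21C 0.05, RPS6B -0.03 and RPL27aB -0.08. The signs of RPS18C and RPS21C turn when replicate 1 of WT at 27 °C is left out, and that of RPS6B turns when values are rescaled with TMM factors. The change of the WT response between the ages was tested itself, as a difference of differences over all 36 libraries. It was positive and called for 50 of 55 members (median 0.81), against 20.8% of 21879 genes. By limma, edgeR and DESeq2 0 members were called negative, against 26.7% of genes, and 1, RPS9C, was negative at an unadjusted p below 0.05. RPS9C (-0.34, adjusted p = 0.0824), RPS15aA, RPS12A, RPL38B and RPS11B were not called.

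**Figure D3:**
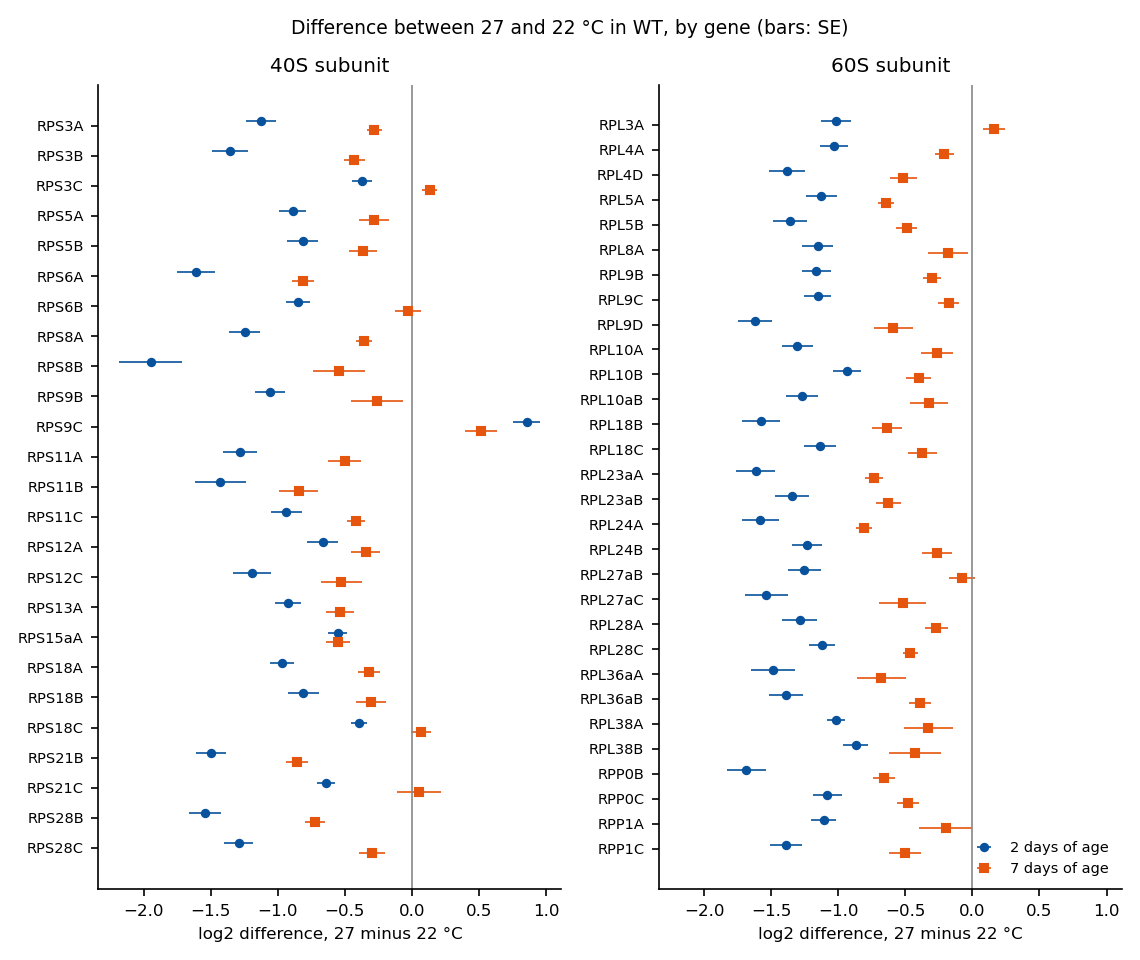
Log2 difference between 27 and 22 °C in WT (horizontal axis) for each of the 55 genes, with SE as bars, at 2 days (blue circles) and 7 days (orange squares), 40S genes at the left and 60S genes at the right. RPS9C lies right of zero at both ages (0.86 and 0.51), the 54 others lie left of zero at 2 days, and most squares lie nearer to zero than their circles.

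Paralogues of a given protein separated in warmth. Each fit was repeated after subtracting from every gene the median level of the members in that library, so that a value says how a gene moved against that middle level. In WT at 2 days 6 members were called above it and 35 below it, while 84% of all genes tested were called in either direction. With the mean level of the members in place of the median, 15 lay above and 19 below, so these counts depend on the centre. RPS9C, RPS3C, RPS18C and RPS21C, all of the 40S subunit, were called above it in each of the 6 comparisons of 27 with 22 °C under either centre. RPL18B, RPL23aA, RPL24A, RPS6A, RPS21B and RPS28B were called below it in each of the 6 under either centre. Among all genes tested, with the median as the centre, the share called in either direction was 85.9% in the libraries labelled pif4-2 and 74.9% in hda9-1 at 2 days. At 7 days it was 59.9% in WT, 55.8% in the libraries labelled pif4-2 and 62.4% in hda9-1. The 6 comparisons share no library.

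RPS6, the 40S protein that S6 kinase phosphorylates, showed this between its A and B loci. RPS6A made up 57.8, 58.5 and 57.6% of the pair per kb of exon in WT at 2 days and 22 °C, and 45.2, 47.5 and 41.9% at 27 °C. At 7 days it made up 39.8, 39.4 and 39.7% at 22 °C, and 28.3, 26.8 and 27.9% at 27 °C. At each age all 27 °C shares of WT lay below all 22 °C shares. RPS6A fell by 1.61 and RPS6B by 0.85 on the log2 scale at 2 days. At 7 days RPS6A fell by 0.81, and RPS6B read 13438, 12591 and 13087 normalised counts at 22 °C and 13498, 12501 and 12281 at 27 °C (limma adjusted p = 0.798).

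The share of RPS21B within its pair went the same way. It held 48.1, 46.8 and 45.6% of the RPS21 level per kb in WT at 2 days and 22 °C, and 33.7, 33.5 and 31.0% at 27 °C. At 7 days it held 33.4% ± 0.537 and 21.0% ± 0.218 (SD, n = 3). In hda9-1 it held 41.3, 39.1 and 39.6% at 22 °C and 27.2% ± 1.31 at 27 °C at 2 days, and 25.5% ± 0.590 and 18.8% ± 0.495 at 7 days. In each of these 4 settings the hda9-1 libraries lay below the WT libraries of the same age and temperature. RPS21B, printed above without a match, lost share in warmth, and RPS21C, with both elements, gained it. In the RPS9 pair RPS9B, with both elements, lost share and RPS9C, with no match before its start, gained it. In the RPS6 pair in WT RPS6A, with site II matches only, lost share. RPS6B gained it, with site II matches and a telo box that lies after its start.

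In the RPS3 and RPS18 families, with 3 listed loci each, the C loci gained share. RPS3C made up 26.4% ± 1.07 of the RPS3 level per kb in WT at 2 days and 22 °C and 39.7% ± 1.64 at 27 °C, and 37.6% ± 0.383 and 45.8% ± 0.323 at 7 days (SD, n = 3 each). RPS3A and RPS3B fell by 1.13 and 1.36 on the log2 scale at 2 days, where RPS3C fell by 0.37. RPS18C (AT4G09800), for a protein of the 40S head, made up 34.2% ± 0.513 and 42.6% ± 2.96 at 2 days, and 47.6% ± 0.349 and 54.2% ± 0.344 at 7 days. RPS18A fell by 0.97 and RPS18B by 0.81 at 2 days, where RPS18C fell by 0.39.

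Smaller shifts were seen in other families. RPS12A held 62.9% ± 0.571 of the RPS12 level in WT at 2 days and 22 °C and 70.9% ± 0.925 at 27 °C. RPL4A held 40.3% ± 0.572 and 46.3% ± 2.01 of the RPL4 level, and RPL24A 39.0% ± 0.829 and 33.5% ± 0.955 of the RPL24 level. RPL10A, by contrast, held 96.4% ± 0.221 and 95.4% ± 0.148 of the summed level of RPL10A and RPL10B, the RPL10 loci in the set.

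**Figure D4:**
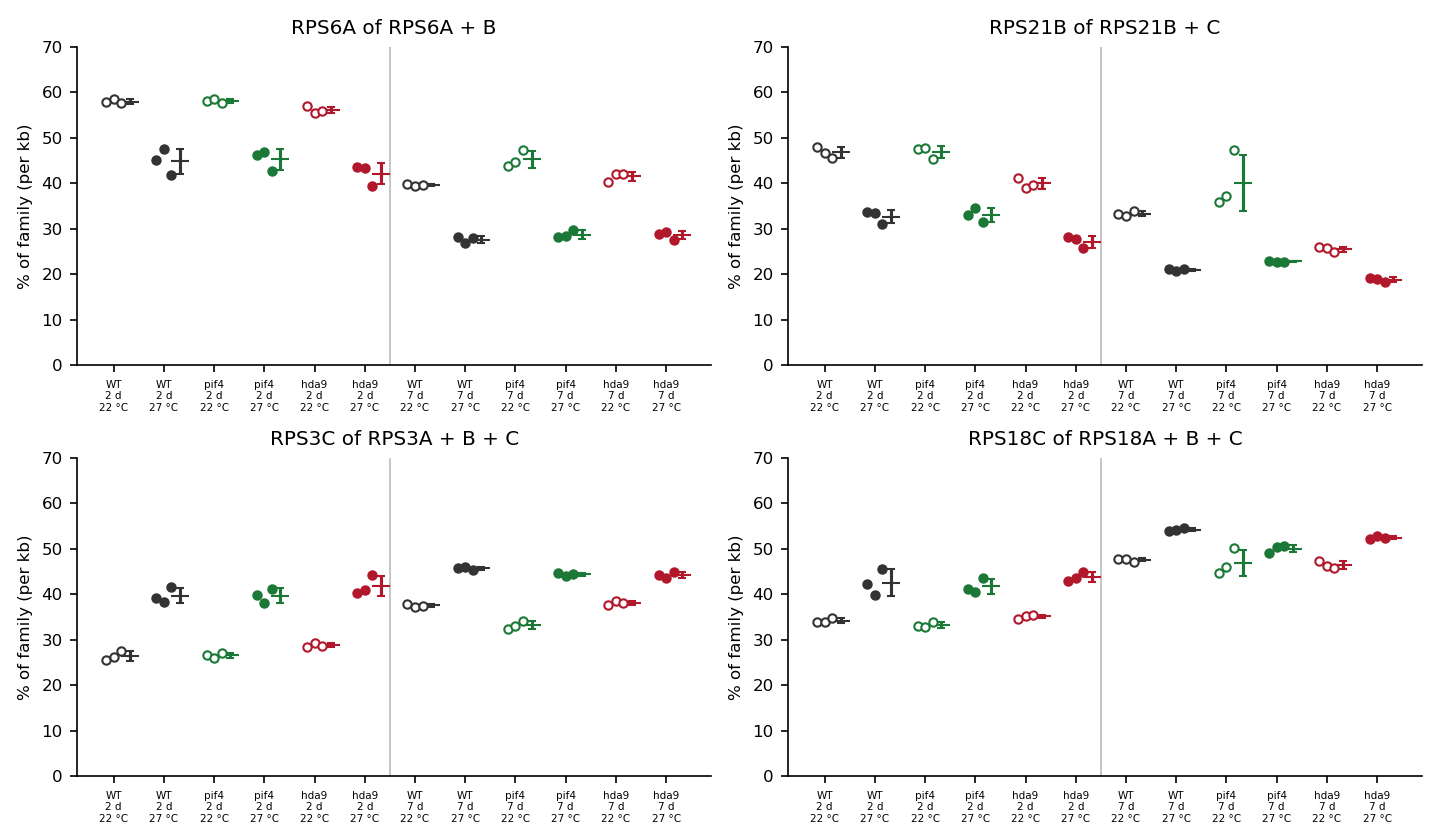
Share of a locus in the level of its listed paralogues (percent, vertical axis, after dividing by exon length) for RPS6A, RPS21B, RPS3C and RPS18C in each library of the 12 groups; open points are 22 °C and filled points 27 °C, with the mean and SD at their right, black for WT, green for pif4-2 and red for hda9-1, and a line between 2 and 7 days. In WT RPS6A and RPS21B are lower and RPS3C and RPS18C higher at 27 °C; 1 library labelled pif4-2 at 7 days and 22 °C stands apart, with 47.3% for RPS21B against at most 37.2% in the others of its group.

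Levels per kb of exon gave the order of the loci. RPS8A was highest in all 12 groups (35568 ± 4695 normalised counts per kb in WT at 2 days and 22 °C, SD, n = 3), and its paralogue RPS8B was lowest in all 12 (91.7 ± 13.1 in the same group). Next above RPS8B stood RPS9C in the groups of 2 days and 22 °C (171 ± 17.2 in WT) and RPS11B in the other groups. RPP0B held the place below RPS8A in the groups of 2 days and 22 °C, and RPL3A held it in all 27 °C groups.

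The set was lower in hda9-1 than in WT at 2 days and 22 °C. There 52 of 55 members were lower and 0 higher (median -0.47), against 20.9% of genes lower and 24.8% higher, and 0 were higher at an unadjusted p below 0.05, by edgeR or by DESeq2. The members took 1.34% ± 0.139 of reads in hda9-1 and 1.95% ± 0.229 in WT, and every hda9-1 library lay below every WT library. RPS9C differed most, reading 65.9, 77.2 and 84.8 normalised counts in hda9-1 and 163, 198 and 173 in WT (log2 difference -1.22, SE 0.103, limma adjusted p = 2.56e-06). RPS11B (-0.78), RPL27aC (-0.71), RPS21B (-0.68), RPL36aA (-0.66) and RPL27aB (-0.66) followed. The smallest called difference was that of RPS15aA, at -0.19. RPS8B, RPP0B and RPL10B were not called.

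At 27 °C and 2 days 3 members were lower in hda9-1 and 0 higher, against 15% and 14.4% of genes. The median difference was -0.15, and 50 of the 55 differences were negative. EdgeR and DESeq2 also called 0 higher, and 0 were higher at an unadjusted p below 0.05. RPS9C read 239, 233 and 216 normalised counts in hda9-1 and 333, 335 and 299 in WT (-0.49, SE 0.103, limma adjusted p = 0.00266). RPS21B (-0.35) and RPL9B (-0.31) were the others. The replicate number pairs these samples by the rule given with the processing (correlations 0.211 to 0.443), and with it as a block 22 members were called. With the compared groups fitted alone 1 was called. Without replicate 3 of WT and of the libraries labelled pif4-2, 34 were called. That setting kept replicate 3 of hda9-1, which lay at a median of 0.876 times the mean of the other hda9-1 libraries at 27 °C. A low library was thus taken out of WT and not out of hda9-1. Leaving out single libraries gave 1 call (without replicate 1 or 2 of WT, or replicate 3 of hda9-1) to 14 calls (without replicate 3 of WT).

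The response to 27 °C at 2 days had a higher log2 difference in hda9-1 than in WT for all 55 members (median of the difference 0.32). RPS9C was called (0.73, SE 0.145, limma adjusted p = 0.0190), against 0.567% of genes called higher and 2.15% called lower in that test. At an unadjusted p below 0.05 there were 21 members, against 20.4% of genes. The count of 1 was 5 with DESeq2 and 31 with replicate numbers fitted as blocks (they do not pair these samples). With the compared groups fitted alone it was 0. It was 13 without replicate 3 of WT and of the libraries labelled pif4-2, where replicate 3 of hda9-1 was kept. It was 0 without replicate 2 of WT at 22 °C, 9 without replicate 3 of WT at 22 °C and 3 without replicate 1 of hda9-1 at 22 °C.

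At 7 days few members differed between hda9-1 and WT. At 22 °C 5 were higher, RPL24B (0.34), RPL10B (0.32), RPP0B (0.28), RPL4A (0.25) and RPS8A (0.18), and 2 were lower, RPS9C (-0.57, limma adjusted p = 0.00290) and RPS21B (-0.25), against 9.84% and 10.2% of genes. At 27 °C RPL4A (0.36) and RPP0B (0.33) were higher and RPS8B and RPL24A (-0.21) lower, against 18.4% and 15.9%. RPS8B read 16.9, 18.8 and 20.4 normalised counts in hda9-1 and 40.9, 35.9 and 46.8 in WT at 27 °C (-1.09, SE 0.196, adjusted p = 0.000326), without overlap. The 7 calls at 22 °C became 21 with the compared groups fitted alone and 13 without replicate 3 of the libraries labelled pif4-2 at 22 °C, and the 4 calls at 27 °C became 11 without that library. Leaving out single libraries of the compared groups gave 2 to 4 calls at 22 °C, each of the 6 libraries lowering the count, and 3 to 8 at 27 °C, with 8 without replicate 1 of WT. At 27 °C RBCS1B was higher in hda9-1 by 1.84, and no other marker was called at either temperature.

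The libraries labelled pif4-2 had 0 members called against WT at 2 days at 22 °C and 0 at 27 °C by limma, against 0.184% of genes at each temperature. The same count of 0 came from edgeR and from DESeq2. At an unadjusted p below 0.05 it was also 0 at either temperature, against 3.18% of genes at 22 °C and 3.62% at 27 °C. At 7 days and 22 °C 9 members were higher and 0 lower, against 7.95% and 9.7% of genes. By edgeR, DESeq2 and an unadjusted p below 0.05, 0 were lower as well. RPL24A (0.36, limma adjusted p = 0.000345) and RPS3A (0.30) led them. The dividing cell markers KNOLLE (0.44) and CDKB1;1 (0.36) and the green tissue marker RBCS1B (0.45) were also higher there, and the dividing cell sum was 2306 to 3021 normalised counts against 1947 to 2179 in WT. Replicate 3 of the libraries labelled pif4-2 had the highest of these sums (3021). Its share of reads in the members was the lowest of its group, at 0.929% against 1.10 and 1.13%. It also read lowest for RBCS1B, at 40749 normalised counts against 61738 and 60397. The other 7 of the 10 markers were not called, and the part of these cell types was not tested. At 27 °C 9 were higher, led by RPL5A (0.38, adjusted p = 0.000182) and RPS12A (0.34), and RPS8B was lower (-0.63), against 13.1% and 11.7%. There RBCS1B (1.90) and LHCB2.1 (0.62) were higher and no other marker was called. Without replicate 3 of the libraries labelled pif4-2 at 22 °C, 33 members were called at 22 °C and 22 at 27 °C, and with the compared groups fitted alone 2 were called at 22 °C. The 9 calls at 22 °C were 3 without replicate 2 or 3 of WT or replicate 2 of the libraries labelled pif4-2, and 5 without replicate 1 of the latter. The 10 calls at 27 °C were 3 without replicate 2 or 3 of WT and 6 without any 1 of the libraries labelled pif4-2 at 27 °C.

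The response to warmth in the libraries labelled pif4-2 had 0 members called different from WT by limma at 2 days, against 0% of genes, and 0 at 7 days, against 2.1%. At 7 days the hda9-1 response also had 0 members called, against 3.53% of genes. EdgeR and DESeq2 called 0 members in each of these 3 tests. Members with an unadjusted p below 0.05 numbered 0, 1 and 1, against 1.48%, 16.1% and 15.7% of genes.

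**Figure D5:**
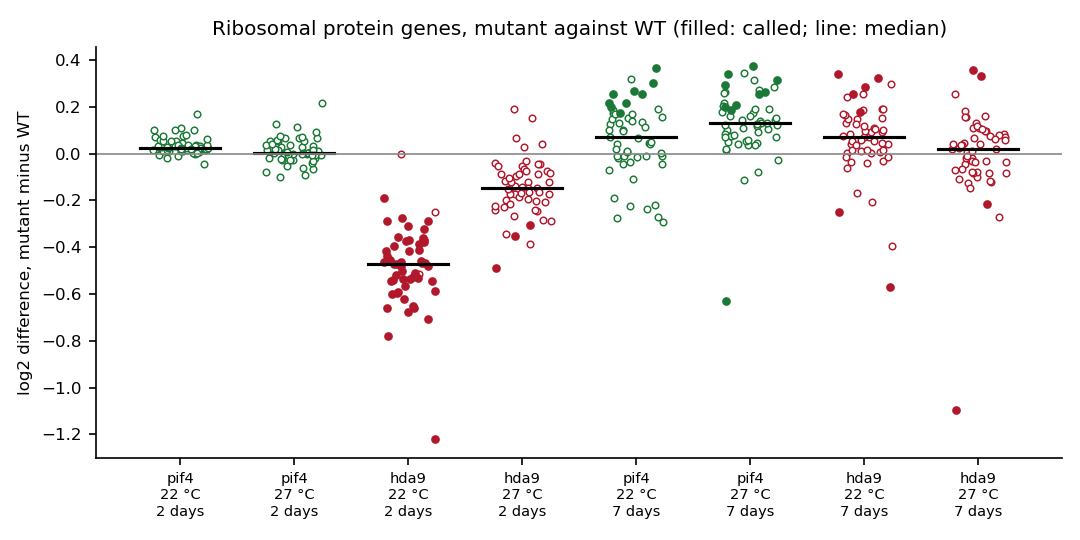
Log2 difference between mutant and WT (vertical axis) for each of the 55 genes in 8 comparisons; points are genes, filled where called, green for pif4-2 and red for hda9-1, and lines are medians. In hda9-1 at 2 days and 22 °C all points lie at or below zero (median -0.47), with RPS9C lowest at -1.22, and in the other comparisons the medians lie between -0.15 and 0.13.

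From 2 to 7 days the set fell in WT at 22 °C. There 51 members fell and RPS9C rose by 1.48 on the log2 scale (median -0.80), against 38.3% and 38.1% of 21879 genes. RPL27aC (-1.53), RPS6A (-1.46) and RPP0B (-1.32) fell furthest of those named here. At 27 °C 9 members fell and 8 rose (median -0.03), against 35.4% of genes in each direction, with RPS9C at 1.13, RPS8B at 0.97, RPS6A at -0.66 and RPS21B at -0.57. Without replicate 3 of WT and of the libraries labelled pif4-2 at 2 days, 28 members were called at 27 °C, and without replicate 2 of WT at 2 days 11 were.

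The mutants gave the same order of the temperatures. In the libraries labelled pif4-2 52 members fell and 1 rose at 22 °C, against 38.4% and 36.5% of genes, and 6 fell and 13 rose at 27 °C, against 35.5% and 35.7%. Without replicate 3 of these libraries at 2 days and 27 °C, 12 were called at 27 °C in place of 19. In hda9-1 27 fell and 3 rose at 22 °C, against 36.7% and 36.2%, and 6 fell and 15 rose at 27 °C, against 33.8% and 36.1%. RPS9C rose with age in all 6 comparisons, by 0.94 to 2.13 on the log2 scale.

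Other genes of the translation apparatus were counted in WT under warmth, in lists made with earlier results of these data known. The shares over all genes tested, given above, were 35.5% falling and 36.5% rising at 2 days and 31.1% and 26.3% at 7 days. Of 131 other cytosolic ribosomal protein loci tested, 128 fell and 1 rose at 2 days (median -1.13), and 82 of 130 fell and 6 rose at 7 days (median -0.38). Of 24 ribosome biogenesis genes 21 fell and 2 rose at 2 days. FIB2, a nucleolar fibrillarin, fell by 1.79 on the log2 scale and NOP56, its partner in small nucleolar particles, by 1.38, while the nucleolin gene NUC2 rose by 1.18. At 7 days 5 of the 24 fell and 7 rose, with NUC2 at 1.25 and REIL1, a factor of late 60S maturation, at 1.15. Of 24 translation factor genes 20 fell and 2 rose at 2 days, with the elongation factor EEF1A-A4 at -1.32 and TCTP1 at 0.88, and 11 fell and 5 rose at 7 days. All 24 plastid ribosomal protein genes fell at 2 days (median -0.55) and 22 of 24 at 7 days (median -0.83). Of 15 genes of TOR signalling and of factors that bind these promoters, 8 rose and 2 fell at 2 days, with S6K2, a kinase of RPS6, at 0.59 and TCP15, a site II binding factor, at 0.66, and 7 rose and 1 fell at 7 days.

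In hda9-1 at 2 days and 22 °C, 118 of the 131 other cytosolic ribosomal protein loci were lower than in WT and 1 higher (median -0.48), against 20.9% of all genes lower and 24.8% higher. Of the 24 biogenesis genes 17 were lower and 1 higher, with the helicase gene RH36 at -0.69. Of the 24 plastid ribosomal protein genes 13 were higher and 0 lower by limma (median 0.18), beside the same shares over all genes.

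Markers of dividing cells and of root hairs were lower together with the set in WT at 27 °C at each age. At 2 days all 4 markers of dividing cells fell, CYCB1;1, a mitotic cyclin gene, by 1.77 on the log2 scale, and their summed level went from 5626 to 6622 normalised counts at 22 °C to 2259 to 2672 at 27 °C. Both root hair genes fell, and their sum went from 2232 to 3086 at 22 °C to 196 to 554 at 27 °C. At 7 days the dividing cell sum was 1947 to 2179 at 22 °C and 937 to 1103 at 27 °C. The root hair sum was 260 to 310 at 22 °C and 50.5 to 66.1 at 27 °C. In hda9-1 at 2 days and 22 °C all 4 dividing cell markers were lower than in WT (sum 4435 to 5400). Neither root hair gene was called there (sum 1173 to 1714). From 2 to 7 days in WT at 27 °C all 4 dividing cell markers and both root hair genes fell, while the members had a median of -0.03. In the libraries labelled pif4-2 the same 6 markers fell from 2 to 7 days at 27 °C, where 13 members rose and 6 fell. No marker of dividing cells or root hairs was at 0 in any library.

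Of the green tissue markers RBCS1B fell by 0.98 in WT at 2 days and LHCB2.1 was not called, and both fell at 7 days. LHCB2.1 was higher in hda9-1 at 2 days, by 1.01 at 22 °C and by 1.42 at 27 °C. Neither seed marker was called in WT at 2 days, both rose at 7 days (OLEO1 by 1.96 and CRA1 by 2.64), and OLEO1 was lower in hda9-1 at 2 days and 22 °C (-1.78). The seed sum was 5.75 to 17.0 normalised counts in WT at 7 days and 22 °C, where 1 marker value was at 0, and reached 191 at 27 °C. The part of these cell types in the members' differences was not tested.

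Some members share sequence or exon bases with other genes. In RPL9C 42.0% and in RPL9B 46.3% of the 50-base windows had a single best place in the genome, so the split of reads between these loci is uncertain. The values were 90.2% for RPS28C, 91.7% for RPS15aA, 99.9% for RPS9B and 100% for RPS9C, RPS6A, RPS6B, RPS21B, RPS21C, RPS3C and RPS18C. RPL27aB shares 98.3% of its exon bases with a gene on the other strand. Whether strand was used in counting is not given in the sources used here, so how far that gene affects its count is not known.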

How the data were processed

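Single-end 50 bp reads of TruSeq RNA libraries were aligned to TAIR10 with TopHat2 and Bowtie and counted per gene with HTSeq, per the submitters' processing notes. The deposited signal values are, per the submitters' processing notes and the values, HTSeq counts divided by a DESeq size factor of each library. Dividing each library by its smallest value above 0 gave whole reads for 100% of values within 0.01, and edgeR on these reads called 15201 genes for warmth in WT at 2 days, where limma called 15237. Reads outside genes were left out; 6.05 to 8.42% of reads were not uniquely placed and 0.952 to 1.23% ambiguous. No version of these tools is given here.

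From the deposited values, limma 3.58.1 in R 4.3.3 was fitted to log2(value + 1) for genes that reached 10 in 3 or more of the libraries fitted. The 18 libraries of an age were fitted together (21164 genes at 2 days, 21320 at 7 days), and all 36 (21879) for comparisons between ages. Fold changes are on the log2(value + 1) scale, which understates those of low genes. P-values were adjusted over all genes tested by the Benjamini-Hochberg method. The fit was tested on simulated data.

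Alternatives were a pseudocount of 8, no filter, the replicate number as a block, TMM factors, the whole reads tested with edgeR 4.0.16 or with DESeq2 1.42.0, the compared groups alone, each library left out, and the libraries that stood apart left out. The same replicate number pairs samples where deviations from group means correlated above 0.1 in every pair. This held for warmth in the libraries labelled pif4-2 at 2 days (0.196 to 0.466) and in hda9-1 at 7 days (0.104 to 0.190). At 2 days it also held for pif4-2 against WT at 22 °C (0.194 to 0.470) and 27 °C (0.236 to 0.519) and for hda9-1 against WT at 27 °C (0.211 to 0.443).

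Exon lengths, overlaps, 50-base windows and promoters came from RefSeq TAIR10.1. The members and gene lists were chosen with earlier results of these data known. Per comparison the text names members with the 6 highest and 6 lowest differences, those called against the median or departing from the set (up to 12), families called in opposite directions, and up to 4 called genes with the largest change of each other list. Other genes named were chosen after their values were seen. Of the names listed, 6 whose annotation did not bear the name out were left out.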

Additional observations from a re-analysis of the deposited data

Results flagged for a closer look

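The response of hda9-1 to 27 °C at 2 days differed from that of WT in 1 called member, by a limma test of the difference itself. That member was RPS9C, with a difference of 0.73 on the log2 scale (SE 0.145, limma adjusted p = 0.0190); it rose by 1.59 in hda9-1 and by 0.86 in WT. In hda9-1 it was higher in all 3 libraries at 27 °C than in all 3 at 22 °C, as in WT. The count of 1 became 0 with the compared groups fitted alone or without replicate 2 of WT at 22 °C, and 5 with DESeq2. It was 13 without replicate 3 of WT and the libraries labelled pif4-2, where replicate 3 of hda9-1 was kept. It reached 31 with replicate numbers fitted as blocks, which do not pair these samples.

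The response of WT to 27 °C differed between 7 and 2 days in 50 called members, by a test of the difference itself. The largest differences were those of RPS8B (1.40), RPL3A (1.18) and RPL27aB (1.18) on the log2 scale. RPS8B is a low-level gene, and RPL27aB shares almost all its exon bases with a gene on the other strand. Dixon's test for an outlying value was not applied, since each group has 3 libraries; the libraries that stood apart in their median ratio are named in the results.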

How the results depend on the processing

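The counts of members called for warmth in each genotype and age were within 1.5 times the reported count under all alternatives run. With the replicate number as a block, 22 members in place of 3 were called for hda9-1 against WT at 27 °C and 2 days, where the numbers pair the samples. For the hda9-1 response against the WT response at 2 days, where they do not, 31 were called in place of 1. The block moved no other count of members by that much. DESeq2 called 5 for the hda9-1 response at 2 days. With the compared groups fitted alone the counts were 1 for hda9-1 at 27 °C and 2 days, 0 for the hda9-1 response at 2 days, 2 in place of 9 for pif4-2 at 22 °C and 7 days, and 21 in place of 7 for hda9-1 at 22 °C and 7 days. When replicate 3 was left out of both WT and pif4-2 at 2 days, and kept in hda9-1, they were 34 for hda9-1 at 27 °C and 13 for the hda9-1 response. The same setting gave 28 in place of 17 for 7 against 2 days in WT at 27 °C. Without replicate 3 of pif4-2 at 22 °C and 7 days they were 33 for pif4-2 at 22 °C, 22 in place of 10 for pif4-2 at 27 °C, 13 for hda9-1 at 22 °C and 11 in place of 4 for hda9-1 at 27 °C, all at 7 days.

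Leaving out each library of the compared groups in turn gave 0 to 9 calls for the hda9-1 response at 2 days, 1 to 14 for hda9-1 at 27 °C and 2 days, and 3 to 33 for pif4-2 at 22 °C and 7 days. It gave 3 to 14 for pif4-2 at 27 °C and 7 days (3 without replicate 2 or 3 of WT, 6 without any 1 pif4-2 library at 27 °C), 2 to 4 for hda9-1 at 22 °C and 7 days, and 3 to 8 for hda9-1 at 27 °C and 7 days (8 without replicate 1 of WT). From 2 to 7 days at 27 °C it gave 11 to 25 in WT and 12 to 19 in the libraries labelled pif4-2. Of genes named, RPS6B in WT at 7 days reversed with TMM factors (0.0035), and RPS18C (-0.0078 to 0.110 with each library left out) and RPS21C (-0.012 to 0.0867) without replicate 1 of WT at 27 °C; none was called. The cause of these changes was not tested. Depth limits RPS8B most, with 16.5 to 104 normalised counts per library.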
